A study of Rattus norvegicus with 4 samples.

Results

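Apelin, the vascular endothelial growth factors, the angiopoietins and related transcripts that act on blood vessels were examined in rat granulosa cells treated with an siRNA against Runx2. The set was a list of 10 genes (Apln, Vegfa, Vegfb, Vegfc, Adm, Angpt1, Angpt2, Edn2, Nrp1 and Hif1a), and its members were all probe sets whose single annotated symbol was one of these names. There were 13 such probe sets for the 10 genes, of 20826 probe sets with 1 symbol, which cover 14217 genes. Granulosa cells surround the oocyte in the ovarian follicle. They came from immature female Sprague Dawley rats aged 27 days primed for 48 h with PMSG, which stimulates the follicles as a gonadotropin. All cultures carried 20 nM of a transfected siRNA and were kept in serum-reduced medium and 10 µM forskolin, an activator of adenylyl cyclase that raises cAMP, for 48 h. The compared groups were 2 cultures with Runx2 siRNA and 2 with a universal negative control siRNA, each measured on 1 array, and no culture without siRNA or without forskolin was among those analysed here. The labels do not say how many animals each culture held.

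The growing follicle has no vessels inside its granulosa layer, and these enter only after ovulation, when the corpus luteum forms. Vegfa is the main signal for that growth and acts through the receptors Kdr and Flt1 with Nrp1 as a co-receptor. The angiopoietins act through the receptor Tek, with Angpt1 as its activating ligand and Angpt2 as a context-dependent antagonist. Apelin signals through Aplnr, adrenomedullin (Adm) through Calcrl with Ramp2 or Ramp3, and endothelin 2 (Edn2), a constrictor peptide that granulosa cells make around ovulation, through Ednra and Ednrb. Hif1a is the oxygen-regulated subunit of a transcription factor that drives many of these genes.

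Upstream sequence was available for 8 of the 10 genes (RefSeq, GRCr8 build), in 9 windows of 250 bases before an annotated transcription start, 2 of them for Vegfa. Angpt1 and Angpt2 were not among them. The sequences are shown because Runx2 binds DNA at a core read as TGTGGT or TGCGGT. These letters, searched on both strands, occurred upstream of 2 of the 8 genes, Apln and Vegfc. The Apln window held the reverse complement of TGTGGT at 2 places, from base -78 to -73 and from -49 to -44 relative to the start. The Vegfc window held the reverse complement of TGCGGT at 1 place, from -171 to -166. Each is given as the 30 bases around it, 5′ to 3′ on the gene's strand, with the matched letters in capitals. The Apln gene model reaches from base 132058739 to 132091518 and so beyond this window, which means that another annotated Apln transcript starts further upstream.
Apln, chrX:132091307-132091336, minus strand: cgcctcctaatgACCACAtgaccaagtggg
Apln, chrX:132091278-132091307, minus strand: gctcgcggccaaACCACAagctacaaaatg
Vegfc, chr16:44561041-44561070, minus strand: tccgctgccaccACCGCAtcccgtggcccg

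Of all 33469 windows of this length, 19.0% held at least 1 match to either core and 2.08% held 2 or more. For TGTGGT alone the shares were 14.5% and 1.44%. The whole Edn2 window (chr5:139036326-139036575, plus strand) is given because Edn2 had the largest difference in the other direction, and none of its letters are in capitals because it held no match to any motif searched.
Edn2: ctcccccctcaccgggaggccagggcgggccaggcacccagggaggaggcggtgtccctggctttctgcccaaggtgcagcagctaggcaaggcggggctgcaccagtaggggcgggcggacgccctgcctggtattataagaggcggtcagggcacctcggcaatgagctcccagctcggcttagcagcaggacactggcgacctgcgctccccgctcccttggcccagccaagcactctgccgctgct
The hypoxia response core ACGTG was found only upstream of Hif1a, at -228 and -164 on the given strand and at -229 on the opposite strand, where the first and the last overlap in CACGTG, and in 16.6% of all windows. The cAMP response element TGACGTCA (1.59% of all windows) and its shorter core TGACG (18.2%), which lies within it, were found in none of the 9 windows.

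The arrays differed in some technical measures. Median signal was 129 and 137 on the control arrays and 141 and 153 on the Runx2 siRNA arrays, and dim probe sets lay higher with Runx2 siRNA by a median of 0.22 on the log2 scale. Relative to the control arrays' mean, the geometric mean signal of the spike-in transcripts was 0.952 on the first Runx2 siRNA array and 1.71 on the second. Arrays of the same replicate number deviated together from their group means (r = 0.548 across probe sets, a description). The probe table names no Runx2 probe set, so the knockdown was not checked here and groups are named as labelled. Of 12 granulosa markers with a probe set, 11 were above the dim limit, and their summed signal was 81226 and 69007 with control siRNA and 83679 and 78067 with Runx2 siRNA. That sum held markers that went opposite ways. Of those above the limit, Star, Cyp11a1 and Cyp19a1 were lower with Runx2 siRNA with groups apart. Cyp19a1 gave 2249 and 1185 with control siRNA and 856 and 470 with Runx2 siRNA. Inhba, Inha, Foxl2, Inhbb and Amhr2 were higher with groups apart. Lhcgr varied with the replicate number, with 5593 and 1484 against 4475 and 640. Of 10 endothelial markers 2 were above the dim limit, Kdr and Esam, with none at 0 and a summed signal of 429 and 564 with control siRNA and 628 and 560 with Runx2 siRNA. The defining markers Pecam1, Vwf and Tie1 had mean signals of 21.3, 30.1 and 20.6. Esam (58.5 and 88.9 against 154 and 94.1) and the dim Cldn5 and Plvap were higher with Runx2 siRNA with groups apart. The groups of the other endothelial markers overlapped. Among all probe sets above the dim limit, 28.8% were higher and 18.5% lower with Runx2 siRNA with groups apart. Among all dim ones these shares were 34.6% and 7.48%, so groups apart in single markers are a description. Pericyte and fibroblast markers (6 of 9 above the limit, none at 0) summed to 1499 and 2404 with control siRNA and 1717 and 2338 with Runx2 siRNA. The largest part of that sum was Col3a1 (mean 877). Acta2 (256 and 312 against 348 and 487) and the dim Rgs5 were higher with groups apart, and the groups of the others on this list overlapped. Macrophage and leukocyte markers (5 of 9, none at 0) summed to 845 and 1408 against 1139 and 1652, with Itgam, Cd163, Adgre1 and Ptprc at means of 5.22 to 20.8. Most of that sum was Cd14 (mean 701) and Lyz2 (mean 224). Csf1r, the receptor of a macrophage growth factor, gave 53.6 and 64.6 with control siRNA and 99.2 and 113 with Runx2 siRNA, with the groups apart. Fcgr3a was also higher with groups apart (84.2 and 102 against 126 and 110). Cd68 was lower with groups apart (82.5 and 114 against 79.6 and 78.6), and the groups of the others on this list overlapped. Of the theca markers Cyp17a1, which makes androgens, was at 22.7 and 16 with control siRNA and 91.7 and 47.2 with Runx2 siRNA, below the dim limit in its mean. Insl3, also dim, gave 51.1 and 54.4 against 72.2 and 74.4. Both were higher with groups apart, and the groups of Nr2f2 and Gli1 overlapped. The theca list (1 of 4 above the limit, none at 0) summed to 3791 and 4615 with control siRNA and 4302 and 4213 with Runx2 siRNA, nearly all of it Nr2f2. The part of these other cells in the results below was not tested, and in bulk cultures fewer cells of a type and less RNA per cell cannot be told apart.

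Signals below are MAS5 values in arbitrary units, and differences are Runx2 siRNA minus control siRNA in log2(signal + 16), the average of 2 arrays per group, with the standard error of the limma fit. The constant of 16 damps the noise of dim probe sets and understates their change. Probe sets with a mean signal under 78.6 were not tested. A probe set's signal depends on its probes, so levels are compared only between arrays and never between genes. Of the 13 probe sets 11 passed this limit, for 8 genes, while those of Angpt1 and Edn2 did not.

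None of the 11 tested probe sets passed the limma test adjusted over all 18625 tested probe sets (adjusted p from 0.329 to 0.938), where 0% of all probe sets were called. At an unadjusted p under 0.05 there were 2 of 11, both of Apln and both lower, beside 5.49% of all tested probe sets that were lower at that level and 6.45% that were higher. With all 4 arrays these shares are 1202 probe sets higher and 1023 lower, against 990 and 1109 after quantile and 876 and 1241 after cyclic loess normalization. Groups did not overlap in 5 of the 11, beside 47.4% over all probe sets. Of these 4 were lower with Runx2 siRNA (18.5% over all) and 1 was higher (28.8% over all). At least a 2-fold difference without overlap was seen in 1 lower (0.821% over all) and 0 higher (0.349% over all) of the 11. The median difference of the 11 was -0.25, and that of all tested probe sets 0.05. Taking each gene by its brightest tested probe set, the median was -0.13 over 8 genes and 0.05 over all 10017 genes. By gene, 4 were lower and 4 higher. The members were chosen with earlier results of these data known, so their counts beside the shares over all are a description.

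**Figure D1:**
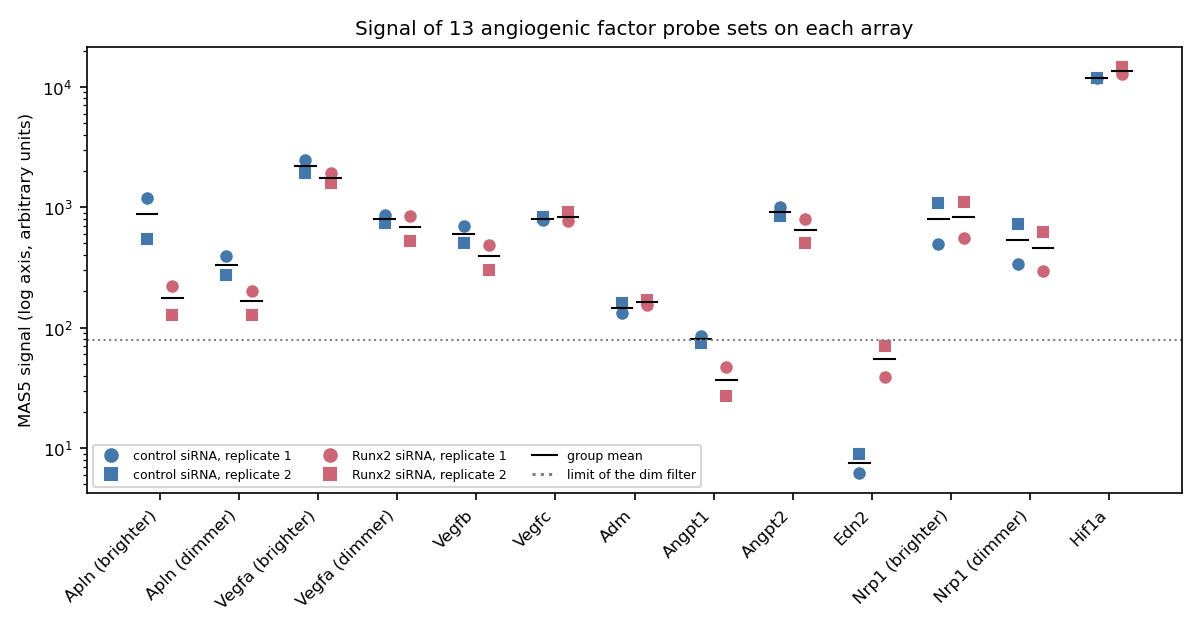
MAS5 signal (log axis, arbitrary units) of the 13 probe sets on each of the 4 arrays. Circles and squares are replicates 1 and 2, short lines are group means, and the dotted line is the limit of 78.6 under which a probe set's mean excluded it from the test. The brighter Apln probe set lies at 548 and 1201 with control siRNA and at 128 and 223 with Runx2 siRNA.

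Apln, which encodes the peptide hormone apelin, had the largest difference among the tested probe sets of the set. Its brighter probe set (1389651_at) gave signals of 1201 and 548 on the first and second control arrays and 223 and 128 on the Runx2 siRNA arrays. Both Runx2 siRNA arrays were below both control arrays. The group means were 874 ± 462 and 175 ± 67.4 (SD, n = 2 arrays each), so the control mean was 4.99 times the Runx2 siRNA mean. The log2 difference was -2.16 ± 0.43 (SE; limma, unadjusted p = 0.0033, adjusted p = 0.329), and it was the 6th lowest of 18625. In the pair numbered 1 it was -2.35 and in the pair numbered 2 it was -1.97.

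The dimmer Apln probe set (1368258_at) gave 393 and 275 with control siRNA and 203 and 128 with Runx2 siRNA. The groups were again apart, but by less, at -0.96 ± 0.28 (SE; limma, adjusted p = 0.365), with -0.90 and -1.01 in the pairs. The probe sets of this gene therefore gave the same order of arrays and differed in size, with control means 4.99 and 2.02 times the Runx2 siRNA means. In both groups the array numbered 2 was below the array numbered 1. For the brighter probe set that gap was -1.11 with control siRNA and -0.73 with Runx2 siRNA, and for the dimmer one -0.49 and -0.60. The receptor gene Aplnr was dim on all arrays, with 13.7 and 37.2 against 36.5 and 48.0 for its brighter probe set, and was not tested.

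Among the tested probe sets of Vegfa, Vegfb and Vegfc, that of Vegfb had the largest difference. Vegfb binds Flt1 and is linked more to the survival of vessels than to their sprouting. Its signals were 694 and 500 with control siRNA and 484 and 301 with Runx2 siRNA. The groups did not overlap, although the second control array and the first Runx2 siRNA array lay close together. The difference was -0.60 ± 0.27 (SE; limma, adjusted p = 0.444), with -0.50 and -0.70 in the pairs. It was -0.27 without the second Runx2 siRNA array and -0.93 without the first.

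Vegfa was measured by a pair of probe sets. The brighter one (1373807_at) gave 2488 and 1908 with control siRNA and 1931 and 1591 with Runx2 siRNA, and the groups overlapped because the first Runx2 siRNA array lay above the second control array. The difference was -0.31 ± 0.17 (SE; limma, adjusted p = 0.492), about the size of the gap between arrays of the same group, which was -0.38 and -0.28. The dimmer one (1370081_a_at) gave 859 and 736 against 845 and 526, a difference of -0.25 ± 0.24 (adjusted p = 0.666). Here the low value was that of the second Runx2 siRNA array, and without it the difference was 0.09. Within the pairs it was -0.02 and -0.47.

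Vegfc, which acts mainly on lymphatic vessels through Flt4, gave 780 and 830 with control siRNA and 764 and 909 with Runx2 siRNA. The groups overlapped, and the difference was 0.05 ± 0.13 (SE; limma, adjusted p = 0.879), with -0.03 and 0.13 in the pairs. Vegfc has the match to the Runx core shown above. Its direction turned to -0.07 without the second Runx2 siRNA array.

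Both angiopoietins had lower signals on the Runx2 siRNA arrays than on either control array. Angpt2 gave 1000 and 841 with control siRNA and 798 and 508 with Runx2 siRNA, so the groups were apart. The difference was -0.51 ± 0.23 (SE; limma, adjusted p = 0.442), with -0.32 and -0.71 in the pairs. It was -0.83 without the first Runx2 siRNA array and -0.20 without the second. Angpt1 was dim, with 85.3 and 74.9 against 46.7 and 27.3, a difference of -0.88 with -0.69 and -1.07 in the pairs. With a constant of 64 it was -0.52, and with 1 it was -1.14. Of 12417 dim probe sets 1.35% were at least that far down, and 7.48% had groups apart in this direction. In a fit without the filter it had an adjusted p = 0.466 (limma).

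Edn2 stood at the other end. Its signals were 6.23 and 8.94 with control siRNA and 38.9 and 70.6 with Runx2 siRNA, all under the dim limit. Both Runx2 siRNA arrays were above both control arrays, and the difference was 1.55, with 1.30 and 1.80 in the pairs. Among the dim probe sets 34.6% had groups apart in this direction, 3.35% did so with at least a 2-fold difference, and 0.217% were at least as far up as Edn2. The size depended on the constant, from 0.72 with 64 to 2.66 with 1. It was 1.35 after quantile and 1.32 after cyclic loess normalization. In a fit without the filter its adjusted p was 0.444 (limma). Of the other endothelin ligands, Edn1 was dim as well, with 51.1 and 64.1 against 62.9 and 81.5. Ece1, which cuts endothelin precursors to their active form, differed by 0.07 ± 0.10 (SE; limma, adjusted p = 0.770).

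**Figure D2:**
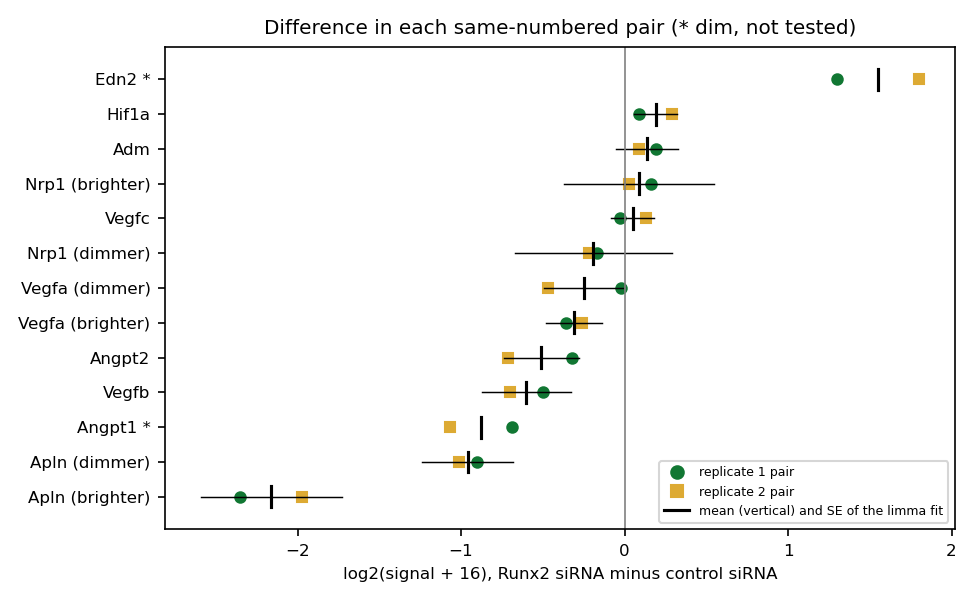
Difference in log2(signal + 16), Runx2 siRNA minus control siRNA, for the 13 probe sets, with circles for the replicate 1 pair, squares for the replicate 2 pair, vertical lines for the mean and horizontal lines for the standard error of the limma fit (asterisks mark dim probe sets, not tested). Both pairs lie on the same side of 0 except for Vegfc, from -2.16 for the brighter Apln probe set to 1.55 for Edn2.

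Adm, which encodes the vasodilator adrenomedullin, gave 132 and 159 with control siRNA and 153 and 170 with Runx2 siRNA. The groups overlapped, and the difference was 0.14 ± 0.19 (SE; limma, adjusted p = 0.763). After cyclic loess normalization it was -0.01. Of the proteins that make up its receptor, Ramp2 and Ramp3 were dim and not tested, and both were higher with groups apart. Ramp2 gave 34.4 and 52.9 against 67.2 and 81.5, and Ramp3 gave 4.63 and 7.61 against 38.9 and 28.6. Among the dim probe sets 34.6% had groups apart in this direction. Calcrl had a pair of tested probe sets with opposite signs. One gave 73.2 and 96.7 against 58.2 and 102, with overlapping groups and a difference of -0.10 ± 0.32 (SE; limma, adjusted p = 0.902). The other gave 59.2 and 73.4 against 88.5 and 109, with both Runx2 siRNA arrays above both control arrays and a difference of 0.48 ± 0.24 (SE; limma, adjusted p = 0.470).

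Nrp1, the co-receptor for Vegfa, varied with the replicate number. The brighter probe set (1373577_at) gave 499 and 1088 with control siRNA and 559 and 1111 with Runx2 siRNA. The dimmer one (1370570_at) gave 335 and 730 against 297 and 626. In each group the array numbered 2 was about a log2 unit above the array numbered 1, with gaps of 1.10 and 0.97 for the brighter probe set and 1.09 and 1.04 for the dimmer one. The siRNA differences were 0.09 ± 0.46 and -0.19 ± 0.48 (SE; limma, adjusted p = 0.938 and 0.871), of opposite sign. Averaged over both groups, the gap between numbers was larger than the siRNA difference in 6 of the 11 tested probe sets, beside 44.8% of all tested. These were both of Nrp1, both of Vegfa, Vegfc and Adm.

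**Figure D3:**
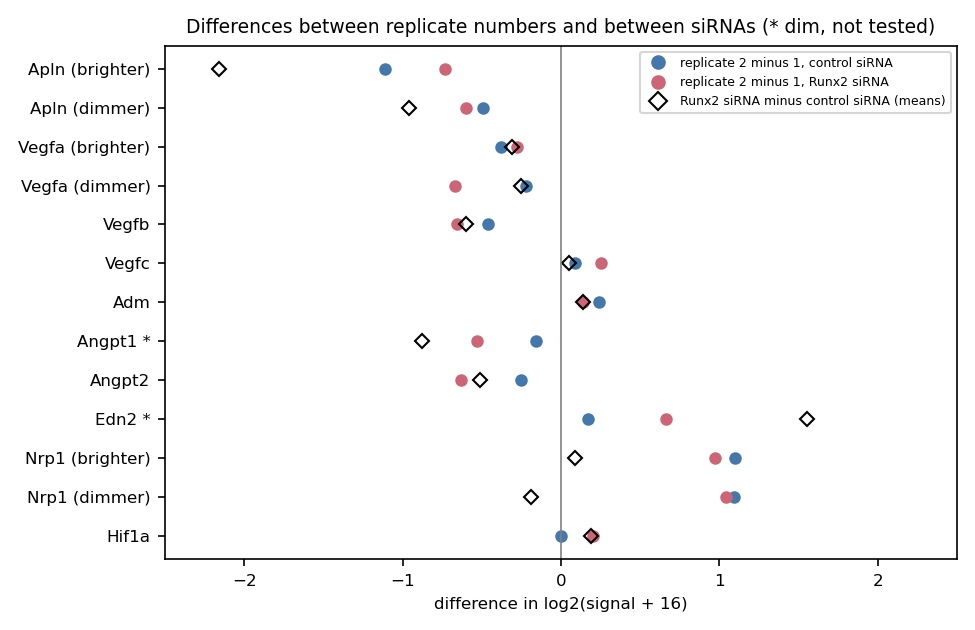
Differences in log2(signal + 16) for the 13 probe sets between replicate 2 and replicate 1 within the control siRNA arrays (blue) and the Runx2 siRNA arrays (red), with the siRNA difference as an open diamond. For Nrp1 the number differences are 0.97 to 1.10 and the siRNA differences 0.09 and -0.19, and for the brighter Apln probe set they are -1.11 and -0.73 beside -2.16.

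Hif1a was bright on all arrays, with 11870 and 11867 with control siRNA and 12661 and 14526 with Runx2 siRNA. The groups did not overlap, and the control arrays differed by only a few units. The difference was 0.19 ± 0.13 (SE; limma, adjusted p = 0.538), with 0.09 and 0.29 in the pairs. After quantile normalization it was 0.03, and after cyclic loess 0.16.

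Of the 11 tested probe sets, 10 differed in the same direction in both same-numbered pairs, beside 69.9% of all tested. Of these 7 were lower in both pairs, beside 28.3% of all tested. They included both probe sets of Apln, both of Vegfa and the dimmer one of Nrp1, while the brighter one of Nrp1 was higher. The remaining 3 were higher in both pairs, as was the rest of the 69.9% over all tested. The numbers do not stand for a pairing that the labels state, so these counts are a description.

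**Figure D4:**
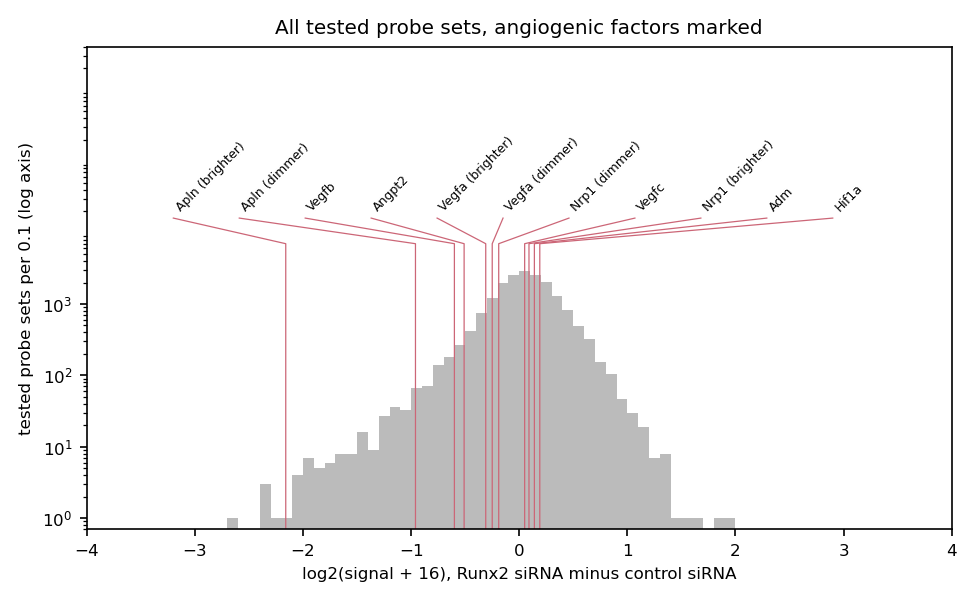
Number of tested probe sets per 0.1 of difference in log2(signal + 16), Runx2 siRNA minus control siRNA (log count axis), with the 11 tested probe sets of the angiogenic factors marked. The brighter Apln probe set, at -2.16, lies in the far lower tail, and the others lie between -0.96 and 0.19.

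The rest of the pathway is given from 4 lists, each gene by its brightest tested probe set. Of 61 listed genes tested, members included, 0 passed by limma over all probe sets, and 6 had an unadjusted p under 0.05, beside 12.4% of all 10017 genes tested. Among the ligands, 11 of 21 listed genes with a probe set were tested, with 6 lower and 5 higher and a median of -0.13. That median was the value of Egfl7 (-0.13 ± 0.47, overlapping groups). The other tested probe set of Egfl7 had the opposite sign, at 0.65 ± 0.18 with groups apart, so count and median depend on the probe set taken. Without the members 5 genes remained, with a median of 0.07. Pdgfa, a growth factor for pericytes and stroma, gave 99.3 and 146 with control siRNA and 237 and 282 with Runx2 siRNA. Its groups were apart, with a difference of 1.01 ± 0.24 (SE; limma, adjusted p = 0.346). Angptl4, a secreted inhibitor of lipoprotein lipase with effects on vessels, gave 4000 and 8394 against 6000 and 15541, overlapping groups with a wide gap between numbers (0.74 ± 0.54). Its difference was 0.05 without the second Runx2 siRNA array and 1.42 without the first, or, leaving out a control array, 0.20 (the first) and 1.27 (the second). Pdgfd gave 929 and 580 against 795 and 414 (-0.35 ± 0.36).

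Of 20 receptor and processing genes with a probe set 11 were tested, with 3 lower and 8 higher and a median of 0.07. After quantile or cyclic loess normalization 5 were lower and 6 higher. The highest was Ramp1, a partner of Calcrl in the receptor for calcitonin gene-related peptide, with 162 and 318 against 348 and 451. Its groups were apart, at 0.76 ± 0.33 (SE; limma, adjusted p = 0.437), or 0.30 with the first control array left out and 1.22 with the second left out. Fgfr2, a fibroblast growth factor receptor, gave 886 and 768 against 1271 and 1008 (0.45 ± 0.15, adjusted p = 0.389), and its other probe sets lay at 0.24 to 0.74. Ackr3, a scavenger receptor that also binds adrenomedullin, differed by 0.33 ± 0.30 and Met, the receptor for hepatocyte growth factor, by 0.20 ± 0.26. After quantile and cyclic loess normalization the Met difference was 0.02 and 0.00. Kdr, the main Vegfa receptor, gave 175 and 200 against 204 and 178 and differed by 0.03 ± 0.18 (limma, adjusted p = 0.956), or by -0.07 after quantile and -0.10 after cyclic loess normalization. Nrp2, a related co-receptor, gave 293 and 468 against 307 and 444 (adjusted p = 0.995), while Flt1, Flt4, Tek and Tie1 were dim.

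Of 11 inhibitors of vessel growth with a probe set 6 were tested, 3 lower and 3 higher, with a median of -0.11, and after cyclic loess normalization 4 were lower and 2 higher. Adamts1, a protease that can bind Vegfa, gave 3583 and 3599 with control siRNA and 2713 and 2491 with Runx2 siRNA (-0.46 ± 0.10, SE; limma, adjusted p = 0.346). Col18a1, the source of endostatin, gave 317 and 283 against 241 and 169 (-0.54 ± 0.21, adjusted p = 0.417), with a second probe set at -0.47. Vash2, a vasohibin that stands in this list and in its count of 3 higher although it, unlike Vash1, is known to promote vessel growth, gave 237 and 303 against 411 and 410 (0.58 ± 0.17, adjusted p = 0.364). A second tested probe set of Vash2 lay at 0.64. The probe sets of Adamts9, a related protease, had opposite signs, at -0.25 ± 0.15 and 0.72 ± 0.24.

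Of 35 genes of the HIF pathway and hypoxia response with a probe set 33 were tested, with 16 lower and 17 higher and a median of 0.00. After quantile normalization 21 were lower and 12 higher, and after cyclic loess 18 and 15. The split also depends on taking the brightest probe set. Other tested probe sets had the opposite sign for Higd1a (-0.33 beside 0.25) and Arnt2 (-0.03 beside 0.38). They lay further down for Pdk1 (-0.43 beside -0.11) and P4ha2 (-0.55 beside -0.33). Hk1, a hexokinase, gave 2159 and 2107 with control siRNA and 1543 and 1681 with Runx2 siRNA (-0.40 ± 0.10, SE; limma, adjusted p = 0.353). Ndrg1 gave 765 and 1134 against 567 and 762 (-0.49 ± 0.24), and a second probe set lay at -0.57. The prolyl hydroxylase gene Egln3, which is itself induced by HIF, gave 136 and 68.0 against 66.0 and 65.0 (-0.47 ± 0.34), where the first control array alone was high. Ankrd37, a HIF target, gave 164 and 186 against 225 and 269 (0.46 ± 0.18, adjusted p = 0.417). The HIF targets Slc2a1, Pgk1 and Ldha, for glucose uptake and glycolysis, lay at -0.21 ± 0.19, -0.02 ± 0.14 and 0.24 ± 0.14, and Epas1, the other main HIF alpha subunit, at -0.33 ± 0.20.

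**Figure D5:**
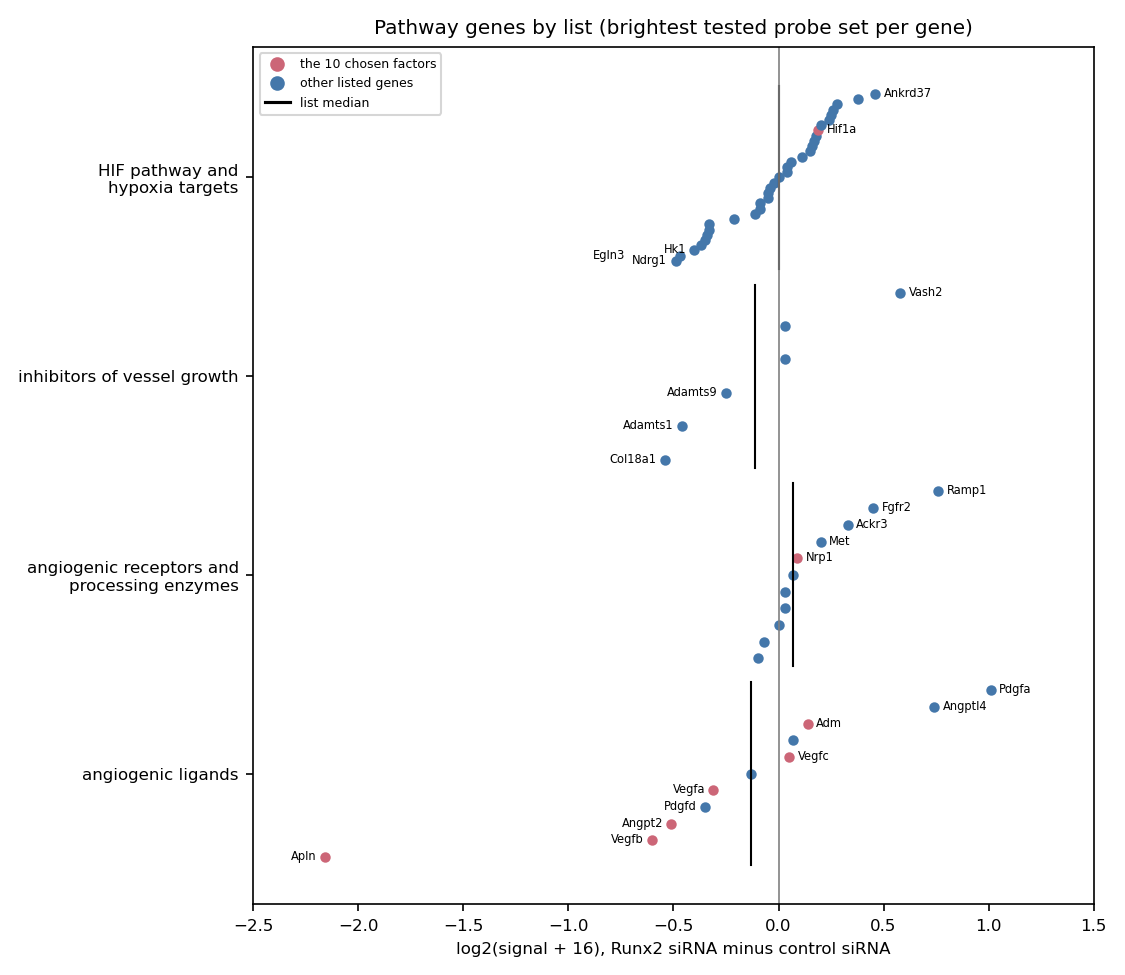
Difference in log2(signal + 16), Runx2 siRNA minus control siRNA, for the tested genes of 4 lists (1 point per gene, brightest tested probe set), with the angiogenic factors in red, other genes in blue and the list median as a black line. The medians are -0.13, 0.07, -0.11 and 0.00 from bottom to top, and Apln lies apart from the other ligands at -2.16.

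The genes whose pattern over the 4 arrays was most like that of the brighter Apln probe set were ranked by the root mean square distance between log2 values centred on each gene's mean, among 9945 genes. The nearest was Dact2, a modulator of Wnt signalling, at a distance of 0.16, with 525 and 222 against 89.1 and 33.0. Next came Slc51a, which encodes part of a transporter of bile acids and steroids, at 0.20, Tmem100 at 0.22, Ptafr, the receptor for platelet-activating factor, at 0.23 and the semaphorin Sema3d at 0.26. All 5 share with Apln the low values on both Runx2 siRNA arrays and a lower value on number 2 than on number 1 in each group. That shared order follows from choosing them by their distance to Apln and is no separate result. Ptafr gave 166 and 112 with control siRNA and 34.5 and 11 with Runx2 siRNA. Both its Runx2 siRNA values, and the second of Dact2, lay under the dim limit that was applied to the mean over all arrays. The size of such differences depends on the constant. With a constant of 64 and of 1 it was -1.22 and -2.73 for Ptafr and -1.75 and -2.63 for Dact2. The likeness of Ptafr and Dact2 to Apln therefore rests partly on dim values. With 4 arrays the likeness of all 5 genes is a description only.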

How the data were processed

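Total RNA of 4 cultures, 2 per group, was labelled with biotin and measured on 1 array each. The deposited values are linear array intensity. The authors made them with MAS5, per the submitters' processing notes, and the sources used here give no version. In the deposited values the trimmed mean of each array is 500, so arrays share a common level, which would hide a change in total RNA. The table held 31099 probe sets, and 57 array controls were left out. Of the other 31042, 20826 have 1 symbol in the probe annotation, 436 several and 9780 none. MAS5 subtracts mismatch probes, which makes dim values variable, so 16 was added before log2 and the lowest 40% by mean signal over all arrays (below 78.6) were not tested.

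Groups came from sample titles. Runx2 siRNA was compared with control siRNA by limma 3.58.1 in R 4.3.3 (eBayes with an intensity trend, two-sided, 2 residual and 3.32 prior degrees of freedom), Benjamini-Hochberg adjusted over all 18625 tested probe sets, with a threshold of 0.05. The fit was tested on simulated data with independent noise on each array. That test does not cover deviations shared by same-numbered arrays (r = 0.548 in these data). An exact permutation test of 2 against 2 arrays cannot go below p = 0.333 and was not used. The series text speaks of separate cultures, and p-values measure the spread between these. A shared number is not stated to mark a shared culture, so it was no term of the fit. The small number of arrays limits the precision.

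The members and lists were chosen with earlier results of these data known. Named from each list were genes at least 1 log2 unit apart without overlap and up to 4 more with the largest differences, and the 5 genes most like Apln. Kdr, Nrp2, Ece1, Calcrl, Slc2a1, Pgk1, Ldha, Epas1, genes named as dim and second probe sets were added for their roles, after their values were seen. Egfl7, Pdk1, P4ha2, Higd1a and Arnt2 were added because their probe sets differed in value. Sequence windows came from RefSeq tables. The alternatives tried were a constant of 1 or 64, scaling by quantiles or by cyclic loess, a filter of 60% or none, no intensity trend, a term for replicate number, each array left out, and the most variable probe set for a gene.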

Additional observations from a re-analysis of the deposited data

How the results depend on the processing

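The count of 0 probe sets called, over all tested, among the angiogenic factors and among the 61 pathway genes, held under both constants, both normalizations, both filters, no intensity trend and each array left out (limma), and 0 pathway genes were called with the most variable probe set. At an unadjusted p under 0.05 there were 2225 probe sets, with 3596 when the first Runx2 siRNA array was left out and 871 when the first control array was. With the replicate number as a block (limma) 1512 probe sets passed, or 8.12% of all tested. With them passed 4 of the 11 tested probe sets of the angiogenic factors and 11 of the 61 pathway genes. Those pathway genes include member genes already among the 4. The 4 were both of Apln (adjusted p = 0.000353 and 0.00973), Vegfb (adjusted p = 0.0224) and Angpt2 (adjusted p = 0.0349), all lower. Their adjusted p without the block lay between 0.176 and 1 over the other alternatives. The labels do not state that a number is a pairing, and the deviations of same-numbered arrays correlated at 0.548. Of the 13 probe sets, 8 kept their direction in all 12 alternatives. Directions that turned were those of Adm (-0.01 after cyclic loess) and Kdr (-0.07 after quantile and -0.10 after cyclic loess), and, with 1 array left out, those with ranges across 0. These ranges were -0.73 to 0.35 and -0.46 to 0.64 for Nrp1, -0.58 to 0.09 for the dimmer Vegfa probe set and -0.07 to 0.17 for Vegfc. They were -0.02 to 0.68 for Ackr3, -0.43 to 0.24 for Calcrl, -0.07 to 0.12 for Kdr, -0.08 to 0.48 for Met, -0.33 to 0.32 for Nrp2, -0.80 to 0.11 for Pdgfd, -0.18 to 0.14 for Pgk1 and -0.42 to 0.01 for Slc2a1. The range was -2.72 to -1.61 for the brighter Apln probe set. The cause was not tested. Leaving out the second Runx2 siRNA array moved the ligand median to 0.05, and leaving out the first control array moved the receptor median to -0.07. With no filter the ligand median was 0.07 (8 lower, 13 higher) and the receptor median 0.23, and the inhibitor median was 0.03 with no filter and with 60% of probe sets left out. Dim signal limits what can be said of Edn2, Angpt1, Aplnr and most endothelial receptors.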
